A study of Homo sapiens with 12 samples.

Results

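The stereoprobes, as the labels name the compounds coded WX-02-23 and WX-02-43, were given to 22Rv1 cells, a human prostate cancer line, at the same dose (20 µM) and for the same time (3 h), so their effects on RNA can be set against each other directly. The comparison rests on 6 of the 12 libraries in the series, 3 treated with WX-02-23 and 3 with WX-02-43, chosen by their treatment label. The other 6 were 3 libraries with the vehicle DMSO (0.1% v/v) and 3 with PladB (10 nM, 3 h), and all 4 groups entered the fits so that they shared 1 estimate of the spread between replicates. Every group, controls included, consisted of 22Rv1 cells gene-edited to carry the substitution C1111S in the splicing factor SF3B1, and no unedited line was analysed here. The labels do not say whether the edited line is 1 clone, nor whether replicates were separate cultures, so p-values measure the spread between these libraries, which may be technical. The title of the series concerns the pioneer transcription factor FOXA1 and covalent small molecules.

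The RNA was profiled by SLAM-seq. All cells, DMSO cells included, received 4-thiouridine (100 µM, 1 h), a uridine analogue that enters RNA as it is made. Alkylation makes it pair as a C, so a genomic T appears as C, and a read with such a change, called a T>C read below, is taken to come from RNA made during the labelling, while all reads together measure the RNA present at the end. KEAP1 holds the transcription factor NRF2 in check and senses oxidants and electrophiles, and released NRF2 switches on antioxidant genes. Heat shock factors answer damaged proteins by raising chaperone genes. The ID genes and the immediate early genes code for short-lived regulators, so they are among the transcripts that can change within hours.

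Between the compounds few genes differed past the test, and those called were mostly higher after WX-02-23. In T>C reads, 5 of 10722 genes tested were called between WX-02-23 and WX-02-43 (0.0466%) by edgeR's quasi-likelihood test with Benjamini-Hochberg adjustment at 0.05. PDK4, TXNRD1, ID3 and RGS2 were higher after WX-02-23, and PMEPA1 was lower. All reads gave 20 calls among 13178 genes (0.152%), and WX-02-23 was the higher in 16 and the lower in 4. These 20 included the 5 genes of the T>C reads, each in the same direction, and T>C reads are part of all reads. PDK4, ERRFI1 and F3 were at least 2-fold higher in all reads, and ZNF543 was at least 2-fold lower. The unadjusted p was under 0.05 in 306 genes for T>C reads, 150 higher and 156 lower after WX-02-23, and in 726 for all reads, 361 higher and 365 lower, so the excess of higher genes was in the calls and not in this wider set.

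The promoter windows of 3 of these genes are shown first. PDK4 had the largest difference that held in every fit, and TXNRD1 was an NRF2 target called in both kinds of read. HSPA1B was the 1 heat shock gene called, of 27 tested in all reads. Each window runs from 250 bases before to 50 bases after a transcription start in RefSeq (GRCh38.p14), written 5′ to 3′ in the direction of the gene. All 20 called genes had such a window. Capitals mark matches, on either strand, to 4 motifs: the antioxidant response element TGACNNNGC, the heat shock element GAANNTTC, the forkhead motif TGTTTAC and the cyclic AMP response element TGACGTCA. A match describes these letters and no more. The windows lie at chr7:95596467-95596766 on the minus strand (PDK4), chr12:104215529-104215828 on the plus strand (TXNRD1) and chr6:31827488-31827787 on the plus strand (HSPA1B).
PDK4: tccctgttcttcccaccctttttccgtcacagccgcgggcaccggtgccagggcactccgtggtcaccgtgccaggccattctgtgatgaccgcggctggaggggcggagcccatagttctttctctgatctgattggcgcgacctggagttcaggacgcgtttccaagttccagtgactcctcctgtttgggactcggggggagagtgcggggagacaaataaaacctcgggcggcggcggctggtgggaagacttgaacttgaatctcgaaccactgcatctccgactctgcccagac
TXNRD1: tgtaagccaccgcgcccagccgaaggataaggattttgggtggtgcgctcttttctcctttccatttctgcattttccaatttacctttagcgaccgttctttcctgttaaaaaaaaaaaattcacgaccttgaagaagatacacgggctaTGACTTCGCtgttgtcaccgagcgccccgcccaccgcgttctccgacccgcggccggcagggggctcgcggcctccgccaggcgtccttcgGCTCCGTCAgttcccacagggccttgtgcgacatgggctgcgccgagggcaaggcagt
HSPA1B: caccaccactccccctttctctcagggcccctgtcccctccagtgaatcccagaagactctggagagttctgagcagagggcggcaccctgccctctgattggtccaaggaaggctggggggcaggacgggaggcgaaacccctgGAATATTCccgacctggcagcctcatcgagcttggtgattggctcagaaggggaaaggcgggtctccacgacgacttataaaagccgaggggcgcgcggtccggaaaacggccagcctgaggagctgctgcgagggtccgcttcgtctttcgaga

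The PDK4 window held none of the 4 motifs. The TXNRD1 window held 2 matches to the antioxidant response element, TGACTTCGC and GCTCCGTCA, and a second TXNRD1 start held another, GCTTTGTCA. The HSPA1B window held 1 heat shock element, GAATATTC. The 20 genes had 32 windows. An antioxidant response element stood in 5 of the 32, of TXNRD1, HMGCS1, IRS1 and RBM47, beside 14.2% of the windows of tested genes and 13.3% of all 35116 windows. A heat shock element stood in 3 of the 32, of HSPA1B, ID1 and TFAP2A (4.90% of the windows of tested genes, 6.77% of all). A forkhead motif stood in 2, of GDF15 and TXNIP (2.57% and 3.42%), and a cyclic AMP response element in 2, of PMEPA1 and ZNF543 (2.70% and 1.85%). The window of SRXN1, another NRF2 target among the called genes, held none of the 4.

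Among the genes called in T>C reads, the largest difference was in PDK4, a gene of fuel use. PDK4 is a mitochondrial kinase that shuts down pyruvate dehydrogenase and so spares glucose. Its 3′ UTR interval (hg19, chr7:95212809-95214952) held 1731, 1885 and 2195 CPM (counts scaled to a common library total) of T>C reads in the 3 WX-02-23 libraries and 839, 854 and 601 in the WX-02-43 libraries, against 471, 768 and 626 in DMSO. The WX-02-23 libraries lay far above both other groups, which overlapped. The log2 difference between the compounds was 1.34 (SE 0.17, 95% interval 0.99 to 1.69, adjusted p = 3.23e-05), a ratio of 2.53. In all reads PDK4 stood at 519 ± 70.3 CPM after WX-02-23 and 187 ± 15.8 after WX-02-43 (SD, n = 3 each), with 150 in DMSO, a log2 difference of 1.48 (adjusted p = 3.95e-12). The call held in all 6 fits that each left out 1 library, in both kinds of read, and of the 5 genes PDK4 was the only one for which that was so in T>C reads. T>C reads were 35.4% of its reads after WX-02-23 and 36.8% after WX-02-43.

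**Figure D1:**
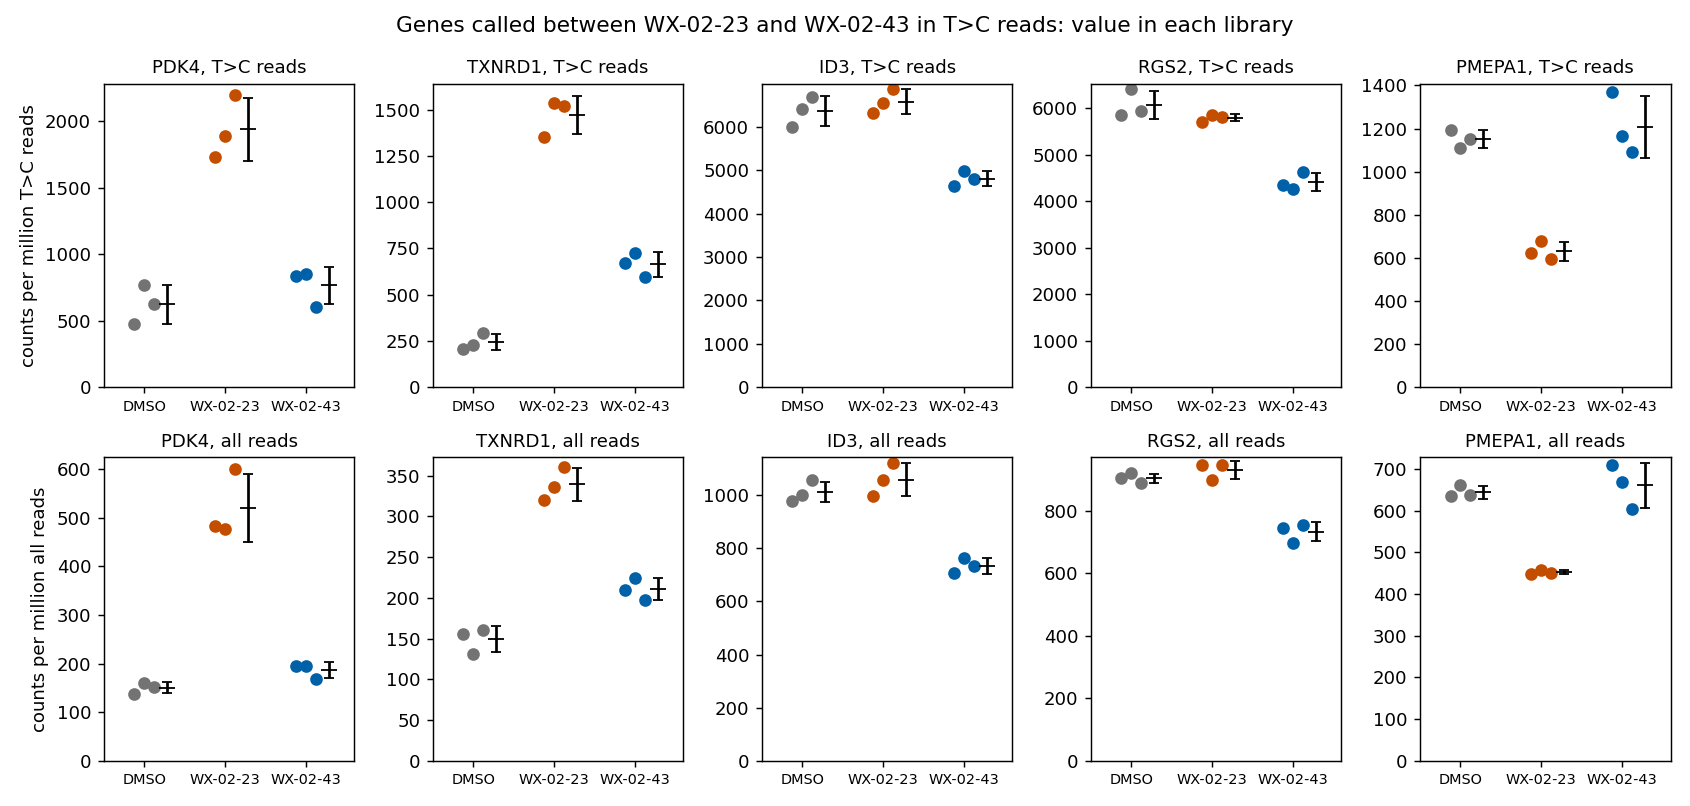
Level of each gene called between the compounds in T>C reads, in CPM of T>C reads (top) and of all reads (bottom); each point is 1 library, and the bar beside the points is the mean with its SD (n = 3). PDK4 and TXNRD1 were highest after WX-02-23, ID3 and RGS2 were lowest after WX-02-43 with WX-02-23 at the level of DMSO, and PMEPA1 was lowest after WX-02-23.

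IRS1, the adaptor that couples the insulin and IGF1 receptors to their signalling kinases, followed in all reads. Its intervals (chr2:227596033-227659725) gave 106, 127 and 111 CPM after WX-02-23 and 70.8, 65.3 and 68.1 after WX-02-43, with 47.7, 52.9 and 41.7 in DMSO. The 3 groups did not overlap and WX-02-43 lay between the others (log2 difference between the compounds 0.75, SE 0.16, adjusted p = 0.0231). TXNIP, an arrestin-like protein that limits glucose uptake and binds thioredoxin (chr1:145441219-145442644), stood at 916 ± 23.3 CPM against 683 ± 38.1 in all reads (log2 difference 0.42, adjusted p = 0.0091). The IRS1 call was lost whichever library was left out (adjusted p 0.0572 to 0.241), and the TXNIP call was lost without replicate 2 or 3 of either compound (adjusted p up to 0.165). Of 18 insulin and metabolic regulators tested in all reads, these 3 were called higher, 0 were called lower and 15 were not called. Over all genes tested 0.152% were called, and the gene lists were chosen with earlier results of these data known. All 3 WX-02-23 libraries lay above all 3 WX-02-43 libraries in 7 of the 18 and below in 0, where 6.18% and 6.5% of all genes tested did so. FOXO1 (log2 difference 0.74), IRS2 (0.40), CPT1A (0.38) and FOXO3 (0.32) were the other 4, none of them called. The median over the list was 0.21, against a median of -0.001 over all genes tested. In T>C reads PDK4 was the 1 called member of 18, where 0.0466% of all genes tested were called. The list's median there was 0.21 against -0.004 over all genes.

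NRF2 target genes were called in both kinds of read. TXNRD1 codes for thioredoxin reductase, which keeps thioredoxin reduced. Its interval (chr12:104742200-104744085) gave 1355, 1538 and 1521 CPM of T>C reads after WX-02-23, 669, 728 and 596 after WX-02-43, and 207, 229 and 292 in DMSO. The 3 groups were fully separate, with WX-02-43 in the middle. The log2 difference between the compounds was 1.15 (SE 0.23, 95% interval 0.69 to 1.60, adjusted p = 0.0241), a ratio of 2.22. In all reads it stood at 339 ± 20.5 against 211 ± 13.4 CPM, a smaller log2 difference of 0.69 (95% interval 0.46 to 0.92, adjusted p = 0.000923). T>C reads made up 41.1% of its reads after WX-02-23, 28.4% after WX-02-43 and 15.4% in DMSO, a share that was not called between the compounds (unadjusted p = 0.0135). The T>C call was lost whichever library was left out (adjusted p 0.0648 to 0.24, with log2 differences from 1.07 to 1.22), while the all-read call held in each of those 6 fits. Among unlabelled reads alone the TXNRD1 difference was 0.41 and was not called (adjusted p = 0.42).

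SRXN1, sulfiredoxin, which restores oxidised peroxiredoxins, was the other NRF2 target called in all reads (chr20:627259-629357). It gave 196, 210 and 179 CPM after WX-02-23 and 119, 135 and 122 after WX-02-43, where DMSO had 115, 119 and 130. The WX-02-43 libraries thus lay at the DMSO level and the WX-02-23 libraries above both (log2 difference between the compounds 0.64, SE 0.13, adjusted p = 0.0122). The call was lost without replicate 1 or 2 of WX-02-23, or replicate 1 or 3 of WX-02-43 (adjusted p up to 0.134). HMOX1, heme oxygenase 1, had the widest gap of the list: 29.98, 35.7 and 34.9 CPM of all reads after WX-02-23, 5.88, 11.2 and 6.01 after WX-02-43, and at most 1.74 in DMSO. That is a log2 difference of 2.12 between the compounds (95% interval 1.12 to 3.12), which was not called (adjusted p = 0.109), although the groups did not overlap. HMOX1 passed when genes of low counts were kept (adjusted p = 0.00365) or when the 6 stereoprobe libraries were fitted alone (adjusted p = 7.17e-05). OSGIN1, an NRF2 target with no T>C read in any DMSO library, had 105 ± 20.6 CPM of T>C reads after WX-02-23 and 48.2 ± 12.5 after WX-02-43, not called between them.

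Over the list, 1 of 25 NRF2 targets tested in T>C reads was called higher after WX-02-23, 0 were lower and 24 were not called. In 9 of the 25 all 3 WX-02-23 libraries lay above all 3 WX-02-43 libraries, and in 0 below, where 5.33% and 5.36% of all genes did so. Those 9 were HMOX1 (log2 difference 2.04), GCLM (1.32), TXNRD1, OSGIN1 (1.12), SRXN1 (1.03), GCLC (0.94), PGD (0.63), FTH1 (0.60) and UGDH (0.46), which cover glutathione synthesis, thioredoxin recycling, the pentose phosphate path and iron storage. Of the 7 members below 0, AKR1C1 lay farthest down, at 2.35 against 13.6 CPM (log2 difference -2.49, 95% interval -7.28 to 2.30), groups that overlapped, and it has a close copy, AKR1C2, that can share its reads. FTL (-0.29), SQSTM1 (-0.25) and SLC7A11 (-0.24) came next, and none of the 7 was called. The list's median was 0.38. Against the shared DMSO libraries the median was 0.98 for WX-02-23 with 5 members called higher and 0.55 for WX-02-43 with 2 called higher. In all reads, where 0.152% of all genes tested were called, 2 of 28 members were called higher and 0 lower. Their median difference between the compounds was 0.14. There 7 of the 28 lay above without overlap and 1 below, NQO2 (-0.22, not called), where 6.18% and 6.5% of all genes did so. KEAP1, the NRF2 inhibitor, had 267 ± 60.6 CPM of T>C reads after WX-02-23 and 125 ± 38.5 after WX-02-43, a log2 difference of 1.09 (95% interval 0.30 to 1.89) that was not called, and 0 of 8 NRF2 control genes were called. In all reads the log2 differences of these 8, KEAP1 included, ran from -0.35 to 0.50. There 0 of the 8 lay above without overlap and 1 below.

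Some regulators were low after WX-02-43 and near DMSO after WX-02-23. ID3 is an inhibitor of DNA binding that blocks basic helix-loop-helix factors and answers BMP signals. Its interval (chr1:23884421-23885450) gave 6311, 6542 and 6886 CPM of T>C reads after WX-02-23, 4633, 4993 and 4799 after WX-02-43, and 6000, 6405 and 6694 in DMSO. The WX-02-23 and DMSO libraries overlapped and the WX-02-43 libraries all lay below them. The log2 difference was 0.45 (SE 0.08, 95% interval 0.28 to 0.62, adjusted p = 0.0118), and it was 0.53 in all reads (adjusted p = 0.00016). In all reads the call held whichever library was left out, but in T>C reads it held only without WX-02-23 replicate 1, with adjusted p up to 0.217 in the others. ID1, its close relative (chr20:30193641-30194318), gave 541, 573 and 617 CPM of all reads after WX-02-23 and 430, 427 and 410 after WX-02-43, with 603, 552 and 634 in DMSO (log2 difference 0.45, adjusted p = 0.0137).

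RGS2, which shortens signalling by G protein-coupled receptors (chr1:192780727-192781407), was also lowest after WX-02-43, while WX-02-23 overlapped DMSO. It gave 5713, 5865 and 5802 CPM of T>C reads after WX-02-23 and 4340, 4270 and 4626 after WX-02-43, with 5854, 6420 and 5940 in DMSO. The log2 difference was 0.39 (SE 0.08, adjusted p = 0.0241) in T>C reads and 0.34 (adjusted p = 0.0231) in all reads. IER2, an immediate early nuclear protein (chr19:13264673-13265722), stood at 228 ± 19.6 against 157 ± 0.82 CPM in all reads, with 222 in DMSO (log2 difference 0.54, adjusted p = 0.0111). Multimapping reads were 65.5% of the IER2 reads, so its level is uncertain. The calls of RGS2, ID1 and IER2 did not hold in every fit: RGS2 lost its call whichever library was left out, in T>C reads (adjusted p 0.0734 to 0.439) and in all reads (0.0698 to 0.306), and ID1 and IER2 kept it in 1 of the 6 fits each (adjusted p up to 0.198 and 0.129).

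Of 31 immediate early genes tested in all reads, RGS2 and IER2 were called higher after WX-02-23, 0 were called lower and 29 were not called. Of all genes tested 0.152% were called. WX-02-23 lay above WX-02-43 without overlap in 8 of the 31, EGR1 (log2 difference 0.57, adjusted p = 0.13), IER5 (0.38) and MYC (0.30) included. It lay below without overlap in BTG2 (-0.93, adjusted p = 0.38) and JUN (-0.24, adjusted p = 0.87). Of all genes tested 6.18% lay above and 6.5% below. The list's median was 0.30. JUN, a subunit of the AP-1 factor, differed the other way from most: its T>C level was 1607, 1578 and 1431 CPM after WX-02-23 and 1953, 2005 and 2181 after WX-02-43, with 976, 1182 and 1095 in DMSO. The groups did not overlap, yet the log2 difference of -0.41 (95% interval -0.67 to -0.16) was not called. Among ID and TGF-beta or BMP response genes in all reads, ID3 and ID1 were called higher and PMEPA1 was called lower. The other 14 of 17 were not called, beside 0.152% called of all genes tested.

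PMEPA1 was the 1 gene called lower after WX-02-23 in T>C reads. It codes for a membrane protein that dampens TGF-beta signalling and is itself induced by it. Its interval (chr20:56223448-56227108) gave 622, 678 and 592 CPM of T>C reads after WX-02-23, 1369, 1168 and 1090 after WX-02-43, and 1195, 1109 and 1151 in DMSO. WX-02-43 overlapped DMSO and WX-02-23 lay below both. The log2 difference was -0.94 (SE 0.16, 95% interval -1.25 to -0.62, adjusted p = 0.0032) in T>C reads and -0.55 (adjusted p = 0.000213) in all reads. Without WX-02-23 replicate 3 or WX-02-43 replicate 1 the T>C call was lost (adjusted p up to 0.152), and the all-read call held in all 6 fits.

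Another 3 genes were lower after WX-02-23 in all reads. TFAP2A, a transcription factor of epithelial lineages (chr6:10396916-10398649), gave 261, 215 and 219 CPM after WX-02-23 and 372, 303 and 351 after WX-02-43, with 394, 461 and 360 in DMSO (log2 difference -0.56, adjusted p = 0.0256). RBM47, an RNA-binding protein of epithelial cells (chr4:40425272-40427920), gave 81.4, 91.6 and 76.6 against 155, 130 and 133 CPM (log2 difference -0.74, adjusted p = 0.00311), with 135 in DMSO. In both genes the WX-02-23 libraries lay below every library of the other 2 groups. ZNF543, a zinc finger gene (chr19:57840634-57842144), was barely expressed, at 1.28 ± 0.50 against 7.64 ± 4.01 CPM, and its log2 difference of -2.57 had a 95% interval from -3.65 to -1.48 (adjusted p = 0.0319). Leaving out replicate 3 of WX-02-23 or replicate 1 of WX-02-43 removed the RBM47 call (adjusted p up to 0.076), 4 of the 6 fits removed that of TFAP2A (up to 0.279) and 5 removed that of ZNF543 (up to 0.411).

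Few luminal factors were called. TFAP2A was the 1 called member of 21 luminal lineage transcription factors in all reads, where 0.152% of all genes tested were called. The list median was -0.02. WX-02-23 lay below WX-02-43 without overlap in 5 of the 21 and above in 3. Of all genes tested 6.5% lay below and 6.18% above. In T>C reads 0 of 19 members were called, 5 lay below without overlap and 2 above. There 5.36% of all genes tested lay below and 5.33% above. FOXA1, a pioneer factor on that list, was close in both: 2482, 2015 and 2414 CPM of T>C reads after WX-02-23 and 2373, 2476 and 2339 after WX-02-43, overlapping groups with a log2 difference of -0.06 (95% interval -0.29 to 0.17). In all reads the FOXA1 difference was 0.09 (-0.10 to 0.28). SF3B1 had a difference of 0.01 in all reads (-0.32 to 0.35), and of -0.44 in its sparse T>C reads (-1.54 to 0.66).

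**Figure D2:**
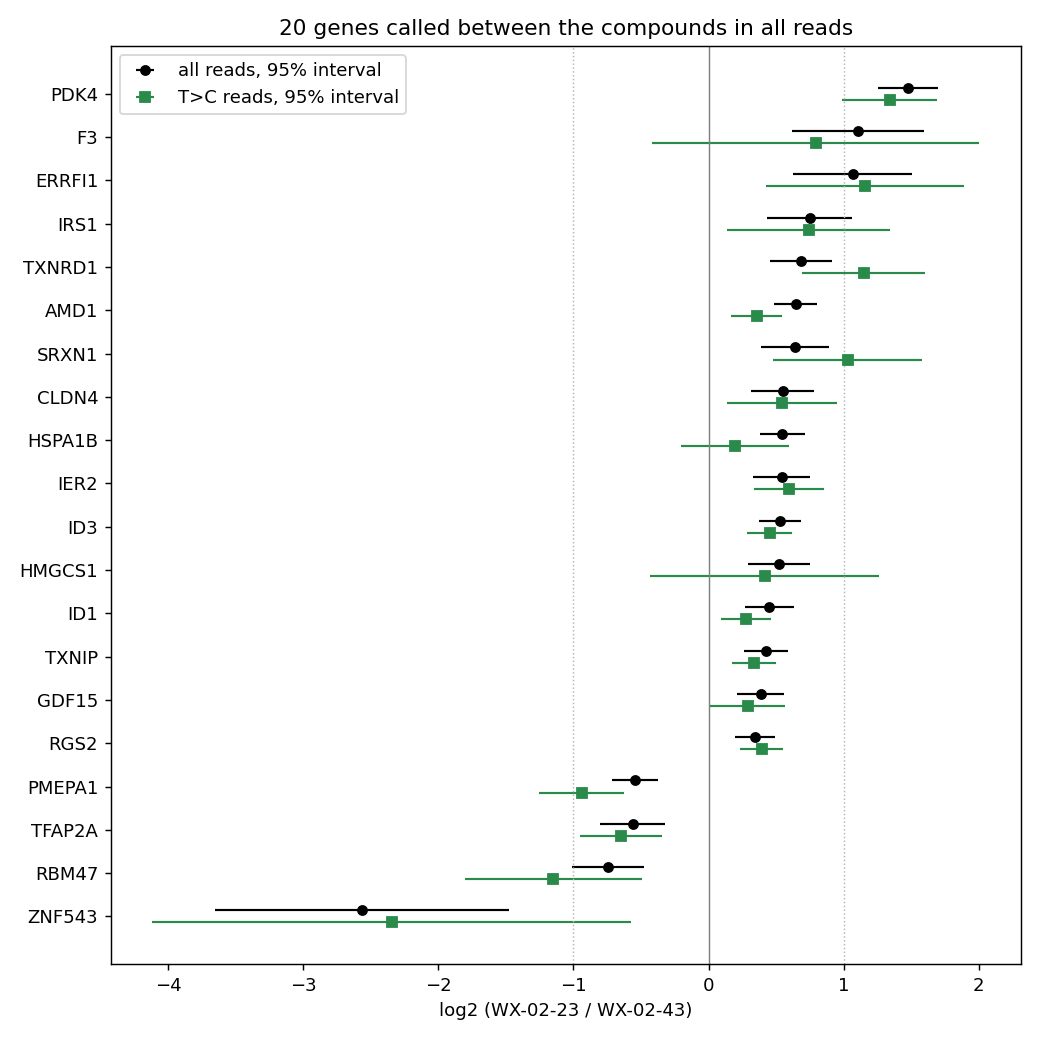
The log2 ratio of WX-02-23 to WX-02-43 for the 20 genes called in all reads (circles) and the same genes in T>C reads (squares), with 95% intervals; dotted lines mark a 2-fold difference. All 20 had the same sign in both kinds of read, and the intervals of F3, HSPA1B and HMGCS1 crossed 0 in T>C reads.

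HSPA1B, an inducible HSP70 chaperone gene, was called in all reads and not in T>C reads. In all reads (chr6:31797654-31798031) it gave 1242, 1325 and 1376 CPM after WX-02-23, 872, 894 and 935 after WX-02-43, and 447, 424 and 466 in DMSO. The 3 groups were fully separate (log2 difference between the compounds 0.55, SE 0.08, adjusted p = 0.000213), and the call held whichever library was left out. Its T>C level was 700, 910 and 733 against 654, 720 and 670 CPM, which overlapped (log2 difference 0.20, 95% interval -0.20 to 0.60). T>C reads were 5.62% of its reads after WX-02-23, 6.84% after WX-02-43 and 8.11% in DMSO. The share test gave no call (unadjusted p = 0.055). HSPA1A, a near-identical copy whose reads can be hard to assign, stood at 1028 ± 84.2 and 750 ± 83.7 CPM of all reads, a log2 difference of 0.45 that was not called (adjusted p = 0.19) but passed in fits with low counts kept (0.00255) or with the 6 libraries alone (0.00179). Of 27 heat shock genes in all reads, HSPA1B was called higher, 0 were lower and 26 were not called, with a median of 0.00. The share called over all genes tested was 0.152%. In T>C reads 0 of 26 were called, with a median of -0.03, and the medians against DMSO were 0.40 for each compound. WX-02-23 lay below WX-02-43 without overlap in 4 of those 26 and above in 0. Of all genes tested in T>C reads 5.36% lay below and 5.33% above.

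GDF15, a stress-induced cytokine of the TGF-beta family (chr19:18499746-18499987), rose with both compounds and further with WX-02-23. In all reads it gave 1121, 959 and 1018 CPM after WX-02-23, 843, 723 and 806 after WX-02-43, and 365, 392 and 407 in DMSO (log2 difference between the compounds 0.38, SE 0.09, adjusted p = 0.0439). Leaving out any 1 library removed that call (adjusted p 0.0698 to 0.596). GDF15 was the 1 called member of 22 ATF4 and integrated stress response genes, and also of 23 p53 targets, with list medians of 0.11 and -0.11. The share called over all genes tested was 0.152%. DDIT4, an inhibitor of mTORC1, had 67.5 ± 6.03 against 40.2 ± 8.33 CPM (log2 difference 0.75, adjusted p = 0.307). SESN2, a stress-induced brake on the same kinase, stood at 171 ± 8.90 and 176 ± 12.1 CPM (log2 difference -0.05, 95% interval -0.32 to 0.23).

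AMD1, the decarboxylase that commits S-adenosylmethionine to polyamine synthesis (chr6:111214820-111216916), had the lowest adjusted p in all reads after PDK4. It gave 1309, 1270 and 1341 CPM after WX-02-23, 834, 799 and 876 after WX-02-43, and 1028, 894 and 1020 in DMSO. The DMSO libraries lay between the compounds, and no groups overlapped. The log2 difference was 0.64 (SE 0.08, 95% interval 0.49 to 0.80, adjusted p = 2.69e-06) and was called in each fit with a library left out. The difference in T>C reads was 0.36 (95% interval 0.17 to 0.54, adjusted p = 0.527). T>C reads made up 39.7% of AMD1 reads after WX-02-23 and 46.2% after WX-02-43 (unadjusted p = 0.000954 for the share, not called). It was the 1 called member of 11 polyamine genes in all reads, where 0.152% of all genes tested were called.

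The remaining genes called higher in all reads were of varied function. ERRFI1, a feedback inhibitor of the EGF receptor (chr1:8071779-8073269), stood at 69.3 ± 3.01 against 33.1 ± 6.95 CPM (log2 difference 1.07, adjusted p = 0.0217, 17.7% multimapping reads). F3, tissue factor, which starts blood clotting (chr1:94994732-94996026), stood at 41.8 ± 3.77 against 19.4 ± 5.41 CPM (1.11, adjusted p = 0.0345). CLDN4, a tight junction protein (chr7:73246162-73247023), gave 311, 274 and 319 against 210, 187 and 222 CPM (0.55, adjusted p = 0.0256). HMGCS1, an early enzyme of cholesterol synthesis (chr5:43287572-43291232), gave 204, 210 and 206 against 155, 139 and 138 CPM (0.52, adjusted p = 0.0319). It was the 1 called member of 25 cholesterol and fatty acid synthesis genes, where 0.152% of all genes tested were called. In each of these 4 genes the 2 groups did not overlap. ERRFI1, F3 and CLDN4 kept the call in 1 of the 6 fits with a library left out, and HMGCS1 in 0 (adjusted p up to 0.286, 0.321, 0.341 and 0.283).

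Below the threshold, the next genes in order of p in all reads were SERTAD2 (log2 difference 0.62, adjusted p = 0.1), SLC45A3 (0.77, adjusted p = 0.11), HMOX1, EGR1 and TOP2B (-0.54, adjusted p = 0.13). SLC45A3, also known as prostein, stood at 87.8 ± 14.3 against 51.3 ± 5.62 CPM, and TOP2B, a type II topoisomerase, at 83.7 ± 11.2 against 121 ± 6.02. In T>C reads the next were IER2 (0.59, adjusted p = 0.0687), TFAP2A (-0.65, adjusted p = 0.158), TXNIP (0.34, adjusted p = 0.203), AMD1 and ARF6 (-0.67, 41.6% multimapping reads). IER2, TFAP2A, TXNIP and AMD1 were called in all reads. Among aryl hydrocarbon receptor genes, TIPARP, a target and feedback inhibitor of the receptor, had 178 ± 65.5 against 75.2 ± 8.72 CPM of T>C reads, a log2 difference of 1.24 (95% interval 0.35 to 2.13) without a call, and 0 of 8 members were called in either kind of read.

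**Figure D3:**
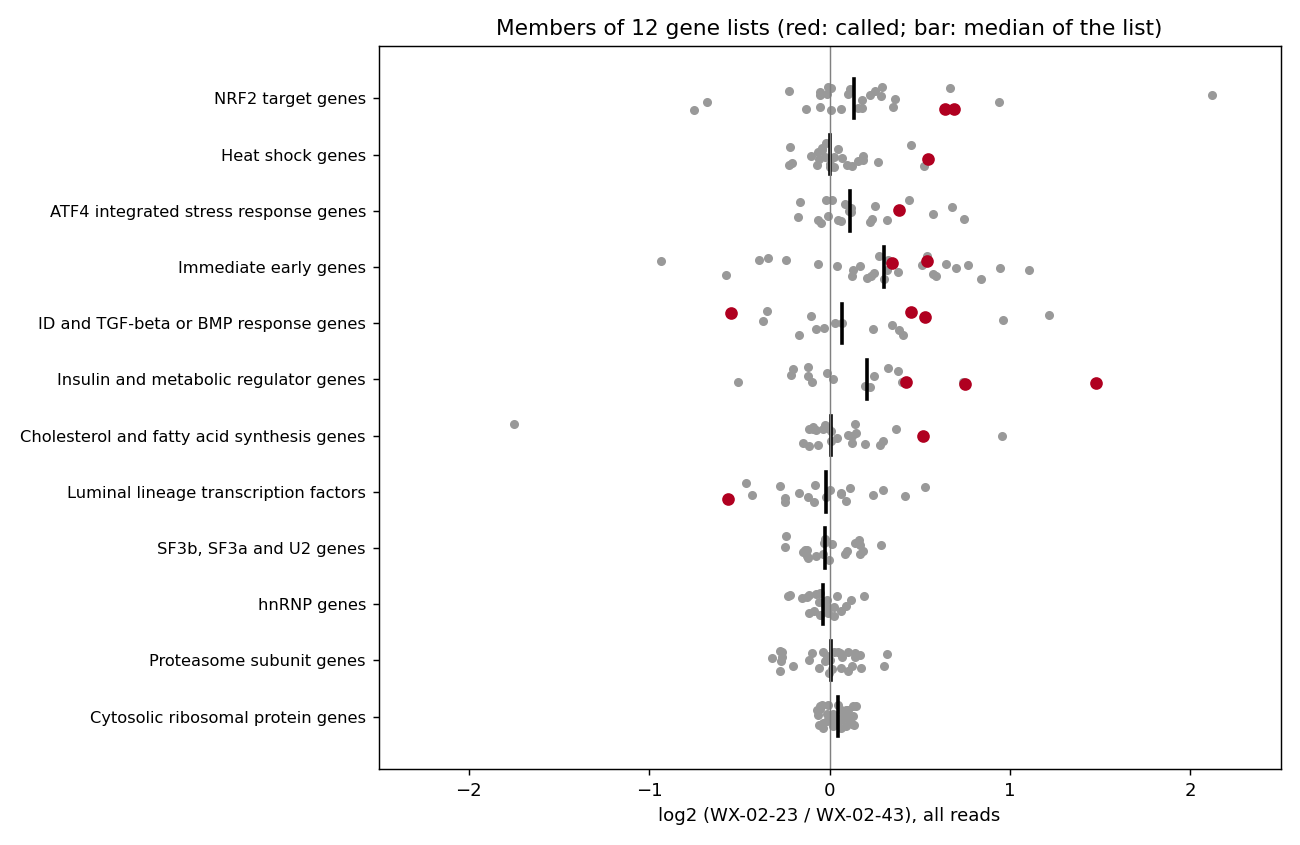
Members of 12 gene lists by their log2 ratio of WX-02-23 to WX-02-43 in all reads; red points were called, grey points were not, and the bar is the median of the list. The axis ends at 2.5 and leaves out 3 members. Called genes were spread over the stress, early response, ID and TGF-beta or BMP, luminal and metabolic lists. PMEPA1 and TFAP2A were the called members below 0. The ribosomal, proteasome and splicing lists lay close to 0.

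For other groups of genes the data limit how large a difference could be. The 95% interval of the difference lay within 2-fold in all 38 cytosolic ribosomal protein genes in all reads, where log2 differences ran from -0.07 to 0.15. The same held for 30 of 30 proteasome subunits, 27 of 27 nuclear oxidative phosphorylation genes, 22 of 22 hnRNP genes and 21 of 21 genes of SF3b, SF3a and the U2 particle, the splicing complex that contains SF3B1. None of these was called. The oxidative phosphorylation genes had a median of -0.06. WX-02-23 lay below WX-02-43 without overlap in 5 of those 27 and above in 0. Of all genes tested 6.5% lay below and 6.18% above. Mitosis genes had a median of -0.14 with TOP2A lowest (-0.60, adjusted p = 0.26), and 0 of 22 were called. Over all genes in all reads, the interval lay within 2-fold for 7827 of 13178 (59.4%), and for 5682 of 5733 (99.1%) with a mean of at least 500 counts. In T>C reads it lay within 2-fold for 1157 of 10722 (10.8%), for 387 of 405 (95.6%) from 500 counts, and for 0 of 7569 under 100 counts. Differences of 2-fold in newly made RNA were therefore not detectable, nor shown to be absent, for most genes at this depth.

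Values against DMSO show where each compound left the called genes. Both comparisons use the same 3 DMSO libraries, so their values are given side by side. In all reads PDK4 differed from DMSO by 1.79 after WX-02-23 and by 0.31 after WX-02-43, TXNRD1 by 1.18 and 0.49, HSPA1B by 1.56 and 1.01, and GDF15 by 1.41 and 1.03. For ID3 the pair was 0.06 and -0.46, for ID1 -0.05 and -0.50, for IER2 0.03 and -0.51, and for RGS2 0.04 and -0.30. For AMD1 it was 0.41 and -0.23, and for PMEPA1 -0.51 and 0.04. Over all genes, 92 (0.698%) were called against DMSO after WX-02-23 and 22 (0.167%) after WX-02-43 in all reads, and 24 (0.224%) and 10 (0.0933%) in T>C reads. ZNF503, a zinc finger repressor, was below DMSO with both, by -0.52 and -0.74 in T>C reads, and its difference between the compounds (0.23, 95% interval 0.04 to 0.41) was not called.

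**Figure D4:**
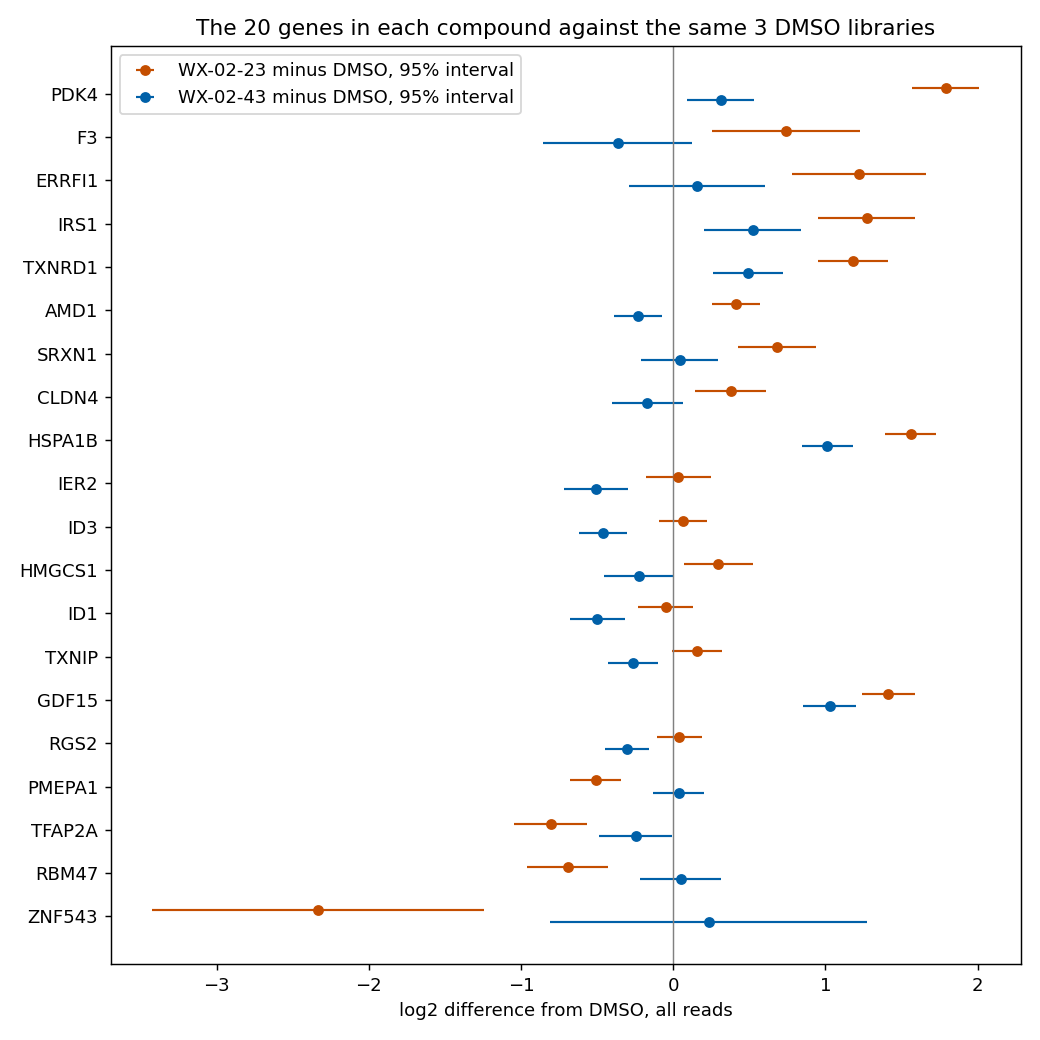
The 20 genes called between the compounds in all reads, as the log2 difference of WX-02-23 (orange) and of WX-02-43 (blue) from the same 3 DMSO libraries, with 95% intervals. PDK4, TXNRD1 and HSPA1B lay further above DMSO after WX-02-23, and IER2, ID3, ID1 and RGS2 lay below DMSO after WX-02-43 with WX-02-23 near 0.

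The share of labelled reads did not differ past the test in any gene. The test of the T>C share between the compounds called 0 of 10684 genes (0%) with edgeR, with 304 at an unadjusted p under 0.05. The lowest p was that of TRIB1, a pseudokinase (log2 difference in share -1.56, adjusted p = 0.179), followed by HIST1H4C and ID1 (-0.56), genes chosen after their values were seen. For ID1 the share of T>C reads was 76.9% after WX-02-23 and 82.3% after WX-02-43. Over whole libraries, T>C reads were 9.64% ± 0.22 of coding reads after WX-02-23 and 9.10% ± 0.28 after WX-02-43 (SD, n = 3 each), with 9.45% in DMSO (exact two-sided permutation test, p = 0.2). PladB libraries had 5.31% to 5.66%.

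The T>C reads of the 2 compounds differed in how many conversions each carried. A T>C read held 1.99 ± 0.0099 conversions after WX-02-23 and 2.41 ± 0.0039 after WX-02-43 (SD, n = 3), and 1.81 ± 0.035 in DMSO. The 3 groups did not overlap, and the ratio of WX-02-43 to WX-02-23 was 1.21. The exact two-sided permutation test of 3 against 3 cannot go below p = 0.1, which is the p found here (adjusted p = 0.133 over 4 measures). The converted share of covered T positions was 0.811% and 0.913% (p = 0.1, exact), and covered T positions per read were 23.6 and 24 (p = 0.1, exact). Over 3046 genes with at least 50 T>C reads in each of 9 libraries, the mean was higher after WX-02-43 in 2594 (85.2%). In 829 of them (27.2%) all 3 WX-02-43 libraries lay above all 3 WX-02-23 libraries, and in 19 all lay below. The median ratio over genes was 1.21, with 0.878 and 1.65 at the 5th and 95th percentiles. Among the called genes TXNRD1 had 2.72 against 3.57 conversions per T>C read and ID3 2.80 against 3.43, while PDK4 was closer at 2.62 against 2.80. Whether this difference bears on the T>C read counts was not tested.

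**Figure D5:**
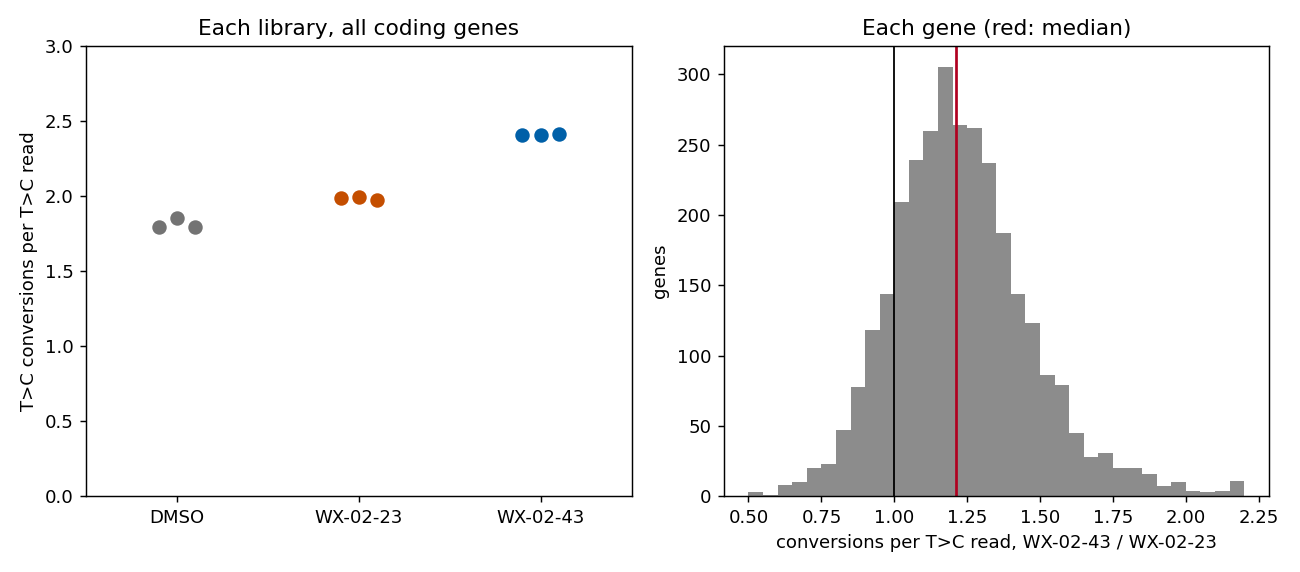
Left, T>C conversions per T>C read in each library over all coding genes. Right, the ratio of WX-02-43 to WX-02-23 for each of 3046 genes, with values beyond the ends drawn in the end bins; WX-02-43 libraries sat near 2.41 and WX-02-23 libraries near 1.99, and the median gene ratio was 1.21.

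The libraries compared held the markers of a luminal prostate line, at a lower summed level than DMSO. Reads on coding genes ran from 12331520 to 21414824 in the WX-02-23 libraries and from 15469674 to 15890881 in the WX-02-43 libraries, with T>C reads from 1157967 to 2094108 and from 1416267 to 1456911. WX-02-23 replicates 1 and 2 were the deepest and the shallowest. All 10 luminal prostate markers exceeded 5 CPM, with a summed level of 3243 to 3536 CPM after WX-02-23 and 3354 to 3556 after WX-02-43, which overlapped, against 3810 to 3987 in DMSO, above both. Of 5 basal markers 1 exceeded 5 CPM (DST, 9.09) with KRT5 and TP63 at 0. Of 7 stromal markers 3 did (LUM at 9.09, ACTA2 at 8.06 and COL1A1 at 6.35) with COL1A2 at 0, and of 6 blood and immune markers 0 did, with CD3E and LYZ at 0. Of 7 neuroendocrine markers 3 exceeded 5 CPM (ENO2 at 209, SYP at 27.9 and CHGB at 8.55), and ENO2 made up most of that list's level. SYP lay above the luminal markers KLK3 (12.7) and TMPRSS2 (12.3). Across genes with at least 50 counts, log2 CPM of 2 libraries correlated at 0.935 to 0.960 within a compound and 0.933 to 0.961 between compounds in all reads, and at 0.710 to 0.797 and 0.702 to 0.803 in T>C reads.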

How the data were processed

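SLAM-seq libraries of 12 samples were used, 3 per group, and WX-02-23 was compared with WX-02-43 as 1 pair of compounds. Per the file headers, the authors mapped and counted reads with slamdunk 0.4.3 over curated RefSeq 3′ UTR and spike-in intervals; the submitters' processing notes name hg19 as the build. Each deposited file gives read counts, T>C read counts, multimapping counts, covered T positions and conversions per interval, a deposited CPM column and the conversion rate, deposited as a fraction of covered T. CPM printed in the report were computed here from the counts, within T>C reads or within all reads, and normalised by TMM. The library totals behind the authors' CPM ran from 24670716 to 42190854 reads.

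Of 29255 intervals, 23086 were coding, 5460 noncoding and 709 spike-ins. Overlapping intervals of a gene were counted once, which left 18650 coding genes. Of 43 coding intervals with names turned into dates, 42 were restored, and 24 pseudoautosomal Y intervals were left out. Counts were fitted with edgeR 4.0.16 (filterByExpr, TMM, quasi-likelihood test) in R 4.3.3 over all 12 libraries, with group as the only term. P-values were adjusted by Benjamini-Hochberg over all genes tested and called under 0.05. The 95% intervals use Wald standard errors scaled by the quasi-dispersion. The T>C share was tested with T>C and unlabelled counts as 2 columns per library and library as a block. DESeq2 1.42.0, other filters and scalings, plain sums over intervals, unlabelled reads alone and each library left out were alternatives. Scripts were tested on simulated data.

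Variance over mean between replicates had a median of 16.3 (WX-02-23) and 12.6 (WX-02-43) for T>C counts with means from 20 to 500, so counting error alone understates the spread. Reads carry no molecular identifiers. Unlabelled control libraries were not used here, and T>C changes from errors or variants were not subtracted. The members and gene lists were chosen with earlier results of these data known. Named genes are every called gene, called list members or at most 3 members of a list with the lowest p and at least 50 counts, 20 genes chosen by name, and the 5 next by p. Members quoted for a group that did not overlap are all of that kind or examples. Some of the genes chosen by name are not reported here.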

Additional observations from a re-analysis of the deposited data

Results flagged for a closer look

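Signals outside the coding genes were of 3 kinds. Spike-in intervals held 12 reads in WX-02-23 replicate 2 and 8 in WX-02-43 replicate 2, against 0 in every DMSO library and in the other libraries of both compounds. Noncoding intervals, which the comparison of coding genes does not use, gave 3 calls of 2280 in all reads (126 at an unadjusted p under 0.05) and 0 of 1682 in T>C reads by edgeR (60 at an unadjusted p under 0.05). SNAR-E, a short RNA gene with near-identical copies, had 46714 ± 6566 CPM of noncoding reads after WX-02-23, 28705 ± 5827 after WX-02-43 and 28107 ± 6275 in DMSO, a log2 difference between the compounds of 0.70 (adjusted p = 0.00139). SNHG1, a host gene of small nucleolar RNAs, had 2318 ± 114 CPM against 1578 ± 223, with 1685 in DMSO (log2 difference 0.55, adjusted p = 0.0158). LINC00628 had 10.3 ± 5.55 CPM after WX-02-23, 0.466 ± 0.807 in DMSO and 0 in all 3 WX-02-43 libraries (adjusted p = 0.011 between the compounds, no SE). Their causes were not tested.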

How the results depend on the processing

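The 5 calls of T>C reads and the 20 of all reads stayed within 1.5 times with DESeq2's size factors in edgeR (5 and 20), a mean of at least 50 counts (4 and 19) and the 6 stereoprobe libraries alone (5 and 26), and in T>C reads when scaled by all reads (7, where the median of all genes moved to 0.07). Keeping genes of low counts gave 8 and 33 calls, plain sums over intervals 2 and 12, DESeq2 25 (17 higher, 8 lower) and 35 (26 higher, 9 lower), and unlabelled reads alone, an alternative chosen after seeing the data, 12, of which 8 were among the 20. DESeq2 called all 5 and all 20 of the genes edgeR called. In unlabelled reads alone, the edgeR calls outside the 20 were TRIB1 (adjusted p = 9.01e-05), ID2 (0.00366), IRS2 (0.013) and EDN1 (0.0333). Leaving out 1 library gave 1 to 3 calls in T>C reads and 7 to 11 in all reads, lowest without WX-02-23 replicate 3 or WX-02-43 replicate 1 in T>C reads and without WX-02-43 replicate 3 in all reads, from fits with 1 sample fewer. The T>C share had 0 to 1 calls with a library left out, TRIB1 without WX-02-43 replicate 1 (adjusted p = 0.003). No call changed sign under these alternatives. Differences that were not called did so for FOXA1 in T>C reads (0.02 scaled by all reads and 0.03 without WX-02-23 replicate 2), for HSPA1A in T>C reads (0.16 without that library), for SF3B1 in all reads (-0.05 to -0.02 in 3 of 6 fits with a library left out), and for SESN2 (0.10) and JUN (0.07) in unlabelled reads alone. DESeq2 also called SRXN1 (adjusted p = 0.00758) and TFAP2A (0.000657) in T>C reads, and ZNF503 in all reads (0.0261). Fewer than 500 counts limit what T>C reads can show.

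Replicate numbers did not pair the samples: same-numbered libraries of the 2 compounds had deviations from their group means that correlated at -0.012 to 0.031, and the fit with a replicate block called 5 genes in T>C reads and 20 in all reads, the same genes as without it.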

Other observations

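Other groups showed differences between the compounds that were not called. BTG1, which slows cell growth and recruits the deadenylase complex, had 616 ± 7.02 CPM of all reads after WX-02-23 and 475 ± 17.4 after WX-02-43 (log2 difference 0.37, adjusted p = 0.14), and its relative TOB1 had 154 ± 12.4 and 120 ± 10.4 (0.36, adjusted p = 0.71). BTG2, of the same family, lay the other way, at 20.9 ± 9.36 and 40.0 ± 5.34 CPM (-0.93, adjusted p = 0.38). Of 14 mRNA decay regulators 0 were called in all reads, 5 lay above without overlap and 2 below, where 6.18% and 6.5% of all genes tested did so. SLC38A2, a neutral amino acid transporter, had 677 ± 23.7 and 515 ± 29.9 CPM (0.40, adjusted p = 0.13), and SLC3A2, the shared heavy chain of amino acid exchangers, 353 ± 17.4 and 414 ± 22.5 (-0.23, adjusted p = 0.82). TRIM24, a bromodomain protein that binds chromatin, had 40.2 ± 9.98 and 68.3 ± 4.88 CPM (-0.76, adjusted p = 0.14).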
